A study of Mus musculus with 6 samples.

Results

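The nuclear genes of the mitochondrial respiratory chain and the ATP synthase were followed in the colon of mice that lack NHE3, the product of Slc9a3, which exchanges sodium for protons on the gut-facing side of intestinal epithelial cells. Members were all genes whose symbol in the platform annotation begins with Nduf (complex I), Sdha, Sdhb, Sdhc or Sdhd (complex II), Uqcr (complex III), Cox4, Cox5, Cox6, Cox7 or Cox8 (complex IV) or Atp5 (complex V). Probe sets that name more than 1 gene were left out, and each gene was read by its probe set of highest mean signal over the 6 arrays. This gave 94 of the 18194 genes on the array, read by 185 of its 45101 probe sets. Of the 94 genes, 44 belonged to complex I, 8 each to complexes II and III, and 17 each to complexes IV and V. The prefixes also took in 12 assembly factors (8 Ndufaf and 4 Sdhaf genes), which help to build a complex without being part of it.

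The study measured RNA of whole colon with Affymetrix MOE430 2.0 arrays, on which short probes grouped into probe sets report each transcript. Colons from NHE3-/- mice, deficient in NHE3, were hybridised to 3 arrays, and colons from their NHE3+/+ (wild-type) littermates to another 3. All mice were 6 to 8 weeks old. Strain, sex, the disrupted part of Slc9a3 and the number of animals behind an array are not given in the sources used here, so the spread behind each p-value is that between these 6 samples and may be technical. In bulk tissue, fewer cells of a type and less RNA per cell cannot be told apart.

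The respiratory chain passes electrons from NADH (at complex I) and succinate (at complex II) through ubiquinone to complex III, and from there through cytochrome c to oxygen at complex IV. Complexes I, III and IV pump protons out of the mitochondrial matrix, and ATP synthase (complex V) lets them back through its membrane ring to make ATP. Most subunits are encoded in the nucleus, and the core of the proton pumps is encoded in mitochondrial DNA. Colonic surface cells use this machinery to oxidise butyrate and to fuel the sodium pump.

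The targeted gene did not separate the genotypes. The brighter of the 2 Slc9a3 probe sets had signals of 5970.4, 4266 and 3665 on the NHE3-/- arrays, against 5908, 5647 and 6669 on the NHE3+/+ arrays (log2 fold change -0.42, SE 0.16, limma adjusted p = 0.120). The dimmer one had a log2 fold change of 0.76 (adjusted p = 0.230). A probe set outside the disrupted part checks nothing, and that part is not known here. Xist, transcribed from the inactive X chromosome of females, had signals of 2639, 1929 and 12.3 on NHE3-/- arrays 1, 2 and 3, against 4.3, 8.0 and 2.0 on the NHE3+/+ arrays. The Y-linked Eif2s3y had 933, 1088 and 1355 on the NHE3-/- arrays, against 1434, 1457 and 1809 on the NHE3+/+ arrays, so NHE3-/- arrays 1 and 2 read transcripts of both sexes. Log2 signals correlated at 0.965 to 0.973 within NHE3-/-, 0.969 to 0.970 within NHE3+/+ and 0.932 to 0.959 between genotypes. The 3' over 5' signal ratio of Gapdh, a measure of RNA integrity, was 0.744, 0.741 and 0.781 on the NHE3-/- arrays, against 0.729, 0.824 and 0.883 on the NHE3+/+ arrays. That of Actb was 1.18, 1.26 and 1.22 on the NHE3-/- arrays, against 1.28, 1.32 and 1.54 on the NHE3+/+ arrays, so that all NHE3-/- arrays lay below all NHE3+/+ arrays. NHE3+/+ array 3 had the highest of the 6 ratios for both genes.

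Genes of each of the 5 complexes rose in NHE3-/- colon, most of them by modest amounts. Of the 94 genes, 90 passed the filter on low signal, and Ndufa4l2, Ndufb4, Cox7b2 and Cox8b did not. Among the 90, 36 rose, none fell and 54 did not pass the test (limma, Benjamini-Hochberg adjusted p under 0.05 over all 27024 probe sets tested). Over all probe sets tested, 4.97% (1342) were called higher and 6.24% (1685) lower. With signals scaled so that all arrays share a median, 1595 probe sets were higher and 738 lower, 53 members were higher and 0 lower, and the median of all probe sets moved by 0.11 on the log2 scale. At an unadjusted p under 0.05 limma gave 59 of the 90 members higher and 3 lower. Of all 27024 probe sets tested it gave 2763 higher and 4696 lower. With quantile normalization 1 member was called lower. All 3 NHE3-/- arrays lay above all 3 NHE3+/+ arrays for 57 of the 90 members, against 12.2% of all probe sets tested, and below them for 3 members, against 20.1%. The log2 fold change was positive for 78 of the 90 members and for 40.1% of all probe sets tested. Its median over the members was 0.32, a 1.25-fold difference, and its median over all probe sets tested was -0.10.

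**Figure D1:**
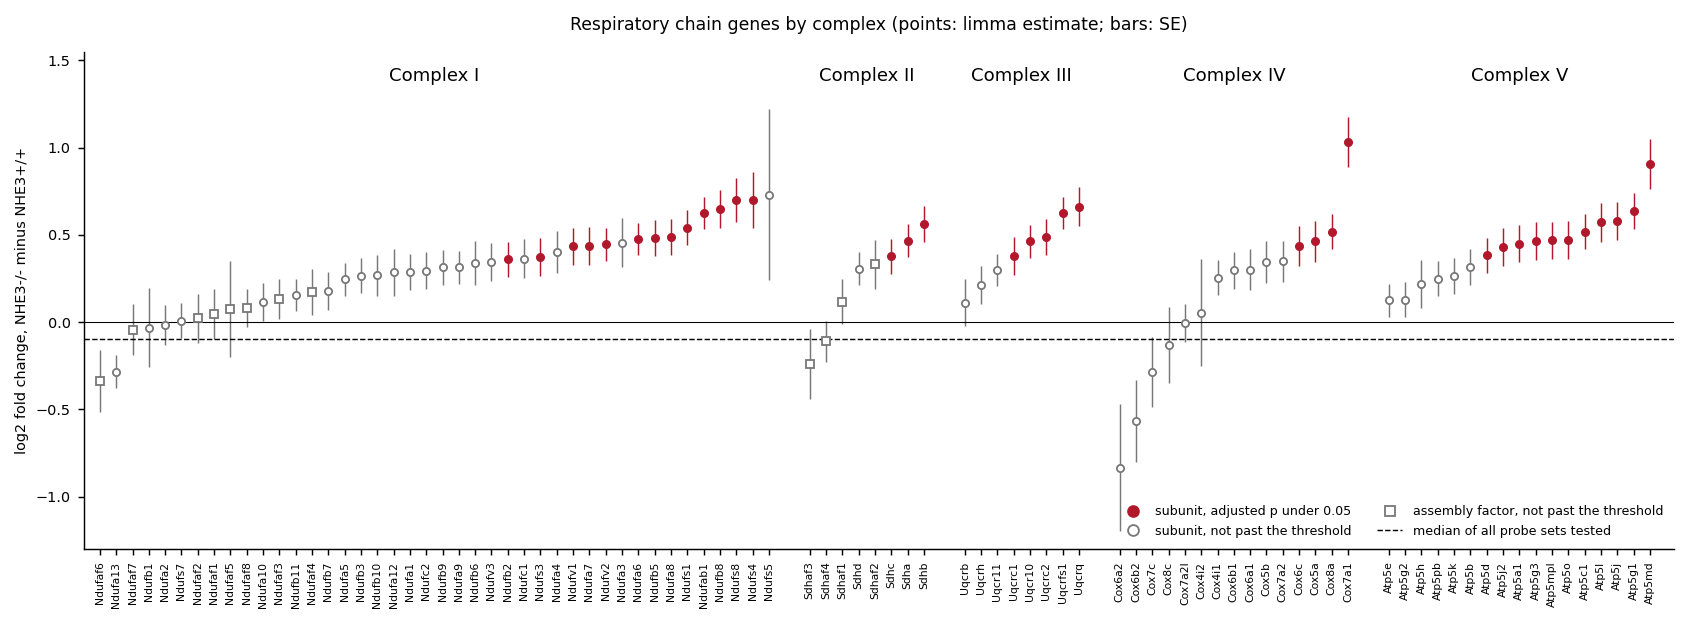
Log2 fold change of NHE3-/- over NHE3+/+ colon (vertical axis) for the 90 tested genes, sorted within complexes I to V, with limma's SE as bars. Filled red points are the 36 genes past the threshold, squares are assembly factors, and the dashed line is the median of all probe sets tested (-0.10). Most points lie above 0, and none of the filled ones lies below.

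The plot of log2 fold changes by complex shows the same direction in each complex, with different shares past the threshold. Complex V had 11 of 17 tested genes higher (median log2 fold change 0.45) and complex III 5 of 8 (median 0.42). Complex II had 3 of 8 (median 0.32), complex I 13 of 42 (median 0.30) and complex IV 4 of 15 (median 0.30). Over all probe sets tested 4.97% were higher, and over those with a mean signal of 5000 or more 24.2%. Subunits and assembly factors differed in count: 36 of 78 tested subunits rose (median 0.36), against 0 of 12 assembly factors (median 0.061; limma, 1 higher and 0 lower at an unadjusted p under 0.05). The assembly factors were read by dimmer probe sets, with mean signals of 299.7 to 2336, while the median subunit probe set had 10413. The difference between the 2 kinds of gene was not tested. Differences between complexes were not tested either.

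The count of 36 depended on single arrays and on the variance model. It was 21 without NHE3-/- array 3 and 20 without NHE3+/+ array 3. With NHE3-/- array 3 as the sole array of its genotype, the one that lacked Xist, it was 22. When limma's prior variance was held constant over signal it was 4: Cox7a1, Ndufab1, Atp5md and Uqcrfs1. In all 6 fits that each left out 1 array, 19 of the 36 genes stayed past the threshold, among them Sdha, Sdhb, Ndufs1, Uqcrq, Cox8a and Atp5c1. Atp5d passed in 0 of the 6. NHE3-/- array 3 had the highest signal of the 6 arrays for 64 of the 90 members and NHE3+/+ array 3 the lowest for 46. NHE3+/+ array 3 also had the highest 3' over 5' ratios of Gapdh (0.883) and Actb (1.54), and the part of RNA integrity in the result was not tested.

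Most members were read by bright probe sets, which had a larger share of higher calls than all probe sets. Among the 1499 probe sets with a mean signal of 5000 or more, 24.2% were called higher, all NHE3-/- arrays lay above all NHE3+/+ arrays for 41%, and the median log2 fold change was 0.14. Of the 66 members in that range, 33 rose, 52 had all NHE3-/- arrays above, and the median was 0.37. For 43% of the bright probe sets NHE3-/- array 3 was the highest. Quantile normalization, which gives all arrays the same distribution of signals, brought the median of bright probe sets to -0.011 that of bright members to 0.23 and that of all members to 0.20. Under it 27 of the 36 genes remained past the threshold and all 36 kept a positive sign.

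**Figure D2:**
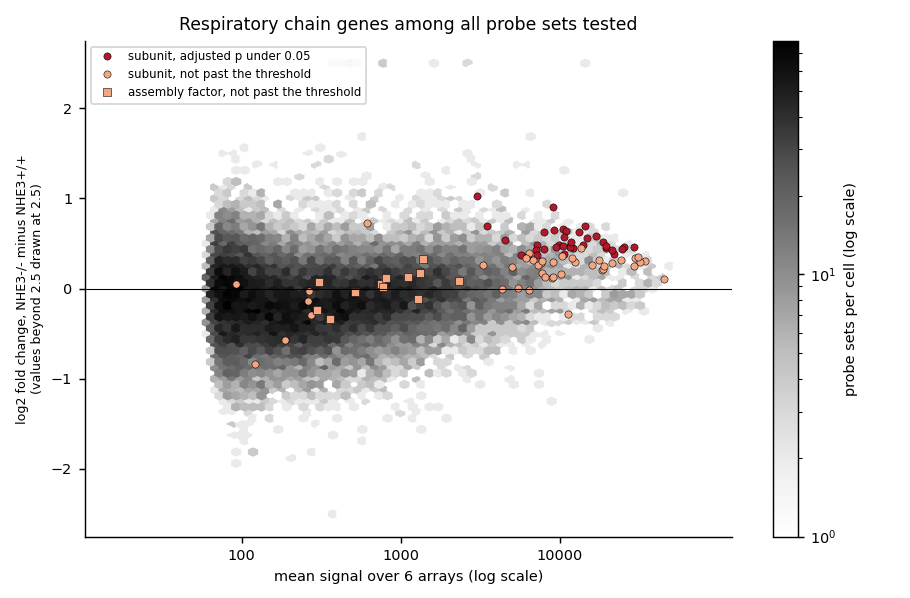
Log2 fold change of NHE3-/- over NHE3+/+ colon (vertical axis) against mean signal over the 6 arrays (horizontal, log scale). Grey cells count all 27024 probe sets tested, red points are the 36 members past the threshold, and orange points (subunits) and squares (assembly factors) are the other 54. Members with signals of 5000 or more centre on a log2 fold change of 0.37, above the median of 0.14 for all probe sets in that range.

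In complex I, most genes of the electron-entry core rose. Of 6 core genes tested, Ndufs1, Ndufs3, Ndufs8, Ndufv1 and Ndufv2 were higher, with log2 fold changes from 0.37 to 0.70. Ndufs1, the large iron-sulfur subunit of the NADH-oxidising module, had signals of 5538, 5268 and 5364 on the NHE3-/- arrays, against 3806, 3942 and 3368 on the NHE3+/+ arrays. The lowest NHE3-/- array stood well above the highest NHE3+/+ array, and the log2 fold change was 0.54 (SE 0.10, adjusted p = 0.00707). Ndufs8, which carries iron-sulfur clusters near the ubiquinone site, had 19931, 19354 and 14420 on the NHE3-/- arrays, against 10774, 10444 and 11534 on the NHE3+/+ arrays. NHE3-/- array 3 was the lowest of its genotype here, unlike for most members, and the log2 fold change was 0.70 (SE 0.13, adjusted p = 0.00624). Ndufv1, which binds NADH and flavin, and Ndufv2, its iron-sulfur partner, had log2 fold changes of 0.43 and 0.45. Ndufs3, of the ubiquinone-binding module, had 0.37 and passed in 1 of 6 fits on 5 arrays.

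Ndufs7, the subunit that hands electrons to ubiquinone, was the core gene that did not pass. Its brightest probe set had 5327, 5223 and 5889.8 on the NHE3-/- arrays, against 5116, 5438 and 5785 on the NHE3+/+ arrays (log2 fold change 0.0086, adjusted p = 0.967). The groups overlapped. A further Ndufs7 probe set, almost as bright, had 6191, 5906 and 6363 on the NHE3-/- arrays, against 5108, 4951 and 3989 on the NHE3+/+ arrays (log2 fold change 0.40, adjusted p = 0.0459). The 2 probe sets of this gene thus gave different calls.

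Among accessory subunits of complex I, which surround the core and take no part in electron transfer, 8 of 28 tested rose, a share close to the 24.2% of all probe sets with signals of 5000 or more. Ndufab1, the mitochondrial acyl carrier protein, had signals of 9794, 9662 and 9532 on the NHE3-/- arrays, against 6623, 6159 and 6012 on the NHE3+/+ arrays. Both groups were tight and did not overlap (log2 fold change 0.62, SE 0.092, adjusted p = 0.00195). Ndufs4, needed in mice for a stable NADH-oxidising module, had 4126, 4247 and 4569.7 on the NHE3-/- arrays, against 3166, 2969 and 1961 on the NHE3+/+ arrays. NHE3+/+ array 3 stood low, and the log2 fold change was 0.70 (SE 0.16, adjusted p = 0.0197). Of the 13 tested accessory genes with Ndufa symbols (Ndufa4 and Ndufab1 among them), 4 rose, namely Ndufab1, Ndufa6, Ndufa7 and Ndufa8, the last 3 with log2 fold changes of 0.44 to 0.49. Of the 12 with Ndufb or Ndufc symbols, which belong to the membrane arm, 3 (25%) rose: Ndufb8 (0.65), Ndufb5 (0.48) and Ndufb2 (0.36).

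Several accessory genes lay outside that pattern. Ndufa13, also called GRIM-19, had 10389, 10009 and 9996 on the NHE3-/- arrays, against 12595, 13015 and 11473 on the NHE3+/+ arrays. All its NHE3-/- arrays were below all NHE3+/+ arrays, but it did not pass the test (log2 fold change -0.28, SE 0.093, adjusted p = 0.0754). With quantile normalization it did (-0.46, adjusted p = 0.00629), as the 1 member called lower there. Ndufs5 had the largest log2 fold change of complex I, 0.73, and rested on 1 array: its signals were 377, 324 and 1881 on the NHE3-/- arrays, against 346, 367 and 374 on the NHE3+/+ arrays (adjusted p = 0.365). Without NHE3-/- array 3 its log2 fold change was -0.047. The X-linked genes Ndufa1 and Ndufb11 had log2 fold changes of 0.29 and 0.16 and did not pass. Ndufa4, named for complex I but now counted as a complex IV subunit, had 0.40 (adjusted p = 0.0536). None of the 8 Ndufaf assembly factors passed in limma, at an adjusted or an unadjusted p, and their log2 fold changes ran from -0.34 for Ndufaf6 to 0.17 for Ndufaf4.

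**Figure D3:**
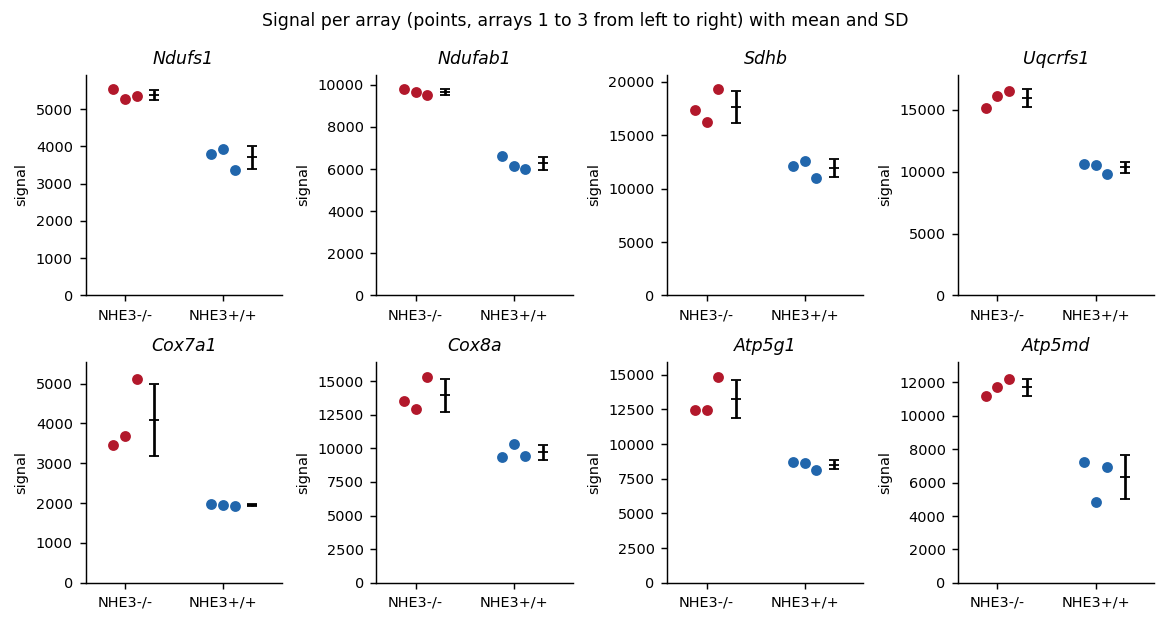
Signal per array (linear axis from 0) of 8 genes past the threshold, with NHE3-/- in red on the left of each panel, NHE3+/+ in blue on the right, and the mean and SD of 3 arrays beside the points. In each of the 8 panels all NHE3-/- points lie above all NHE3+/+ points. Cox7a1 shows the widest spread among NHE3-/- arrays (3459 to 5122) beside a tight NHE3+/+ group (1934 to 1974).

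Complex II, succinate dehydrogenase, links the citric acid cycle to the chain and is encoded by nuclear genes alone. All 4 subunit genes had NHE3-/- arrays above NHE3+/+ arrays, and 3 passed the test. Over all probe sets tested 12.2% were separated in this way and 4.97% were called higher. Among those with a mean signal of 5000 or more, a range that held all 4 genes, the shares were 41% and 24.2%. Sdhb, the iron-sulfur subunit, had 17358, 16280.1 and 19284 on the NHE3-/- arrays, against 12154, 12628 and 11024 on the NHE3+/+ arrays (log2 fold change 0.56, SE 0.10, adjusted p = 0.00638). Sdha, the flavoprotein that oxidises succinate, had 10481, 10839 and 11751 on the NHE3-/- arrays, against 7926, 8254 and 7717 on the NHE3+/+ arrays (0.47, SE 0.094, adjusted p = 0.0102). The membrane anchors were closer to the threshold, on either side of it. Sdhc had a log2 fold change of 0.38 (adjusted p = 0.0383), and Sdhd had 0.30 (adjusted p = 0.0606) with 8925, 8480 and 8383 on the NHE3-/- arrays, against 6943, 7358 and 6569 on the NHE3+/+ arrays. The assembly factors Sdhaf1 to Sdhaf4 did not pass, with log2 fold changes between -0.24 and 0.33, and their groups overlapped.

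The promoters of 3 of these genes, all with positive log2 fold changes, differ in sequence. The 250 bases before the annotated start (RefSeq, GRCm38.p6, given 5′ to 3′ on the gene's strand) are shown for 3 subunits of complex II, 1 with several copies of a motif of a mitochondrial gene regulator, 1 with single copies and 1 with none. Capitals mark matches, on either strand, to GCGCANGCG (the motif of nuclear respiratory factor 1, NRF1) or to CCGGAAG (the motif of ETS factors such as GABP). Sdha lies at chr13:74350241-74350490 on the minus strand and held 3 NRF1 matches. Sdhd, at chr9:50603850-50604099 on the minus strand, held 1 match to each motif. Sdhb, at chr4:140961021-140961270 on the plus strand, held neither run of letters.
Sdha: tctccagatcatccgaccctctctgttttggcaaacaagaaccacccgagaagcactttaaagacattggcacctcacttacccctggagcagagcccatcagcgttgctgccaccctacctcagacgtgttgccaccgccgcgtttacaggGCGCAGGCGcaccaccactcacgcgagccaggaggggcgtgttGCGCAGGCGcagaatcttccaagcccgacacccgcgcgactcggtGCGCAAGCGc
Sdhd: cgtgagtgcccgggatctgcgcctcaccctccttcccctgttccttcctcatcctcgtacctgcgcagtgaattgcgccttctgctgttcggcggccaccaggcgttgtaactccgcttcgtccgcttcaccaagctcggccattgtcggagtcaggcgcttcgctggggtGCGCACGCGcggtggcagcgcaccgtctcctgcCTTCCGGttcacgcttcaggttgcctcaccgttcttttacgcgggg
Sdhb: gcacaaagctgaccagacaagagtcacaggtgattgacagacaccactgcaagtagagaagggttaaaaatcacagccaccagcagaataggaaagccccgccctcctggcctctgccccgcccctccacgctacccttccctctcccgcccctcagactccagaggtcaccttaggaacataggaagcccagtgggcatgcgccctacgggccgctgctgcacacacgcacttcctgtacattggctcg
The log2 fold changes of Sdha, Sdhd and Sdhb were 0.47, 0.30 and 0.56. Whether these letters go with the size of the change was not tested.

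The motifs were counted in the promoters of all members and set beside the calls. RefSeq windows were found for 78 of the 94 members. The NRF1 letters stood in 14 of the 78 (17.9%), against 8.0% of 17492 protein-coding genes, and the ETS letters in 16 (20.5%), against 10.2%. Among 29 members that rose, 4 held the NRF1 letters (Sdha, Ndufa8, Atp5c1 and Atp5l) and 3 the ETS letters, while among 46 that did not pass, 9 held the NRF1 letters and 13 the ETS letters. The letters TCAAGGTCA, bound by estrogen-related receptors, stood in the window of Atp5g3 and of no other member (0.36% of all genes). Those of YY1, AANATGGCG, stood in 4 members (1.56% of all genes). These counts describe letters in a short window and say nothing of binding, and their relation to the calls was not tested.

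In complex III, which passes electrons from ubiquinol to cytochrome c, 5 of 8 genes rose and all 8 had positive log2 fold changes. Uqcrfs1, the Rieske iron-sulfur protein, had 15146, 16099.8 and 16549 on the NHE3-/- arrays, against 10603, 10567 and 9834 on the NHE3+/+ arrays. The groups were far apart for their spread (log2 fold change 0.62, SE 0.092, adjusted p = 0.00199). Uqcrq, a small subunit that binds near cytochrome b, had 12707, 11712 and 14245 on the NHE3-/- arrays, against 9120.2, 7743 and 7549 on the NHE3+/+ arrays (0.66, SE 0.11, adjusted p = 0.00435). The core proteins Uqcrc1 and Uqcrc2 had log2 fold changes of 0.38 and 0.49 and the small subunit Uqcr10 had 0.46, all past the threshold. Uqcr11 (0.30), the hinge protein Uqcrh (0.21) and Uqcrb (0.11) did not pass. Uqcrb had 39538, 47564 and 54501 on the NHE3-/- arrays, against 38675, 49480 and 42451 on the NHE3+/+ arrays. Its groups overlapped.

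In complex IV, cytochrome c oxidase, 8 of 9 common subunits had positive log2 fold changes and 3 (33.3%) passed the test. These were Cox8a, Cox5a and Cox6c, subunits around the catalytic core. Over the 15 tested genes of complex IV, 26.7% were higher. The share was 4.97% over all probe sets tested and 24.2% over those with signals of 5000 or more. Cox8a had 13545, 12922 and 15346 on the NHE3-/- arrays, against 9343, 10357 and 9435 on the NHE3+/+ arrays (log2 fold change 0.52, SE 0.10, adjusted p = 0.00907). Cox5a and Cox6c had log2 fold changes of 0.46 and 0.44. Cox4i1, Cox5b, Cox6a1, Cox6b1 and Cox7a2 had 0.25 to 0.35 with adjusted p from 0.0778 to 0.125, and all but Cox6a1 had every NHE3-/- array above every NHE3+/+ array. Such separation held for 12.2% of all probe sets tested and for 41% of those with signals of 5000 or more. Cox7c (-0.29) was read by a dim probe set with a mean signal of 274.0. Cox7a2l, which helps join complexes III and IV, had -0.0064 (adjusted p = 0.977), with overlapping groups.

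Cox7a1 had the largest change of all 90 members. It encodes the isoform of subunit 7a known from heart and skeletal muscle, where it takes the place of Cox7a2. Its signals were 3459, 3679 and 5122 on the NHE3-/- arrays, against 1974, 1951 and 1934 on the NHE3+/+ arrays. The NHE3+/+ arrays lay within a narrow range, all NHE3-/- arrays stood far above it, and array 3 was the highest (2.09-fold, log2 fold change 1.03, SE 0.14, adjusted p = 0.00131). It stayed past the threshold in all 6 fits on 5 arrays and with quantile normalization (0.98, adjusted p = 0.00158). Its RefSeq promoter window, at chr7:30183921-30184170 on the plus strand of GRCm38.p6, is shown because this gene changed most, and it held none of the 4 motifs searched.
Cox7a1: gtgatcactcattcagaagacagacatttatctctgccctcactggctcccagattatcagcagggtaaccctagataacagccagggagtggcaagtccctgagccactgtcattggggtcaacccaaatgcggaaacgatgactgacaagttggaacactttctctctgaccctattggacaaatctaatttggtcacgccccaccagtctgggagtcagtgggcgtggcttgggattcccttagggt
No comparison of its brightness with that of Cox7a2 gives their relative amounts, since probe sets differ in how strongly they bind.

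The other tissue-restricted isoforms did not follow Cox7a1. Cox6a2, the heart and muscle partner of Cox6a1, had 145, 59.7 and 41.8 on the NHE3-/- arrays, against 108, 213 and 165 on the NHE3+/+ arrays (log2 fold change -0.84, SE 0.36, adjusted p = 0.164). Cox6b2, known from testis, had a log2 fold change of -0.57 with all NHE3-/- arrays below (adjusted p = 0.149). Cox4i2, known from lung, had 0.054 and Cox8c, known from testis, -0.13. Cox8b and Cox7b2 were below the filter, with mean signals of 14.3 and 15.6. These probe sets were dim, with mean signals from 14.3 for Cox8b to 262 for Cox8c, so the arrays could show only large changes in them.

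**Figure D4:**
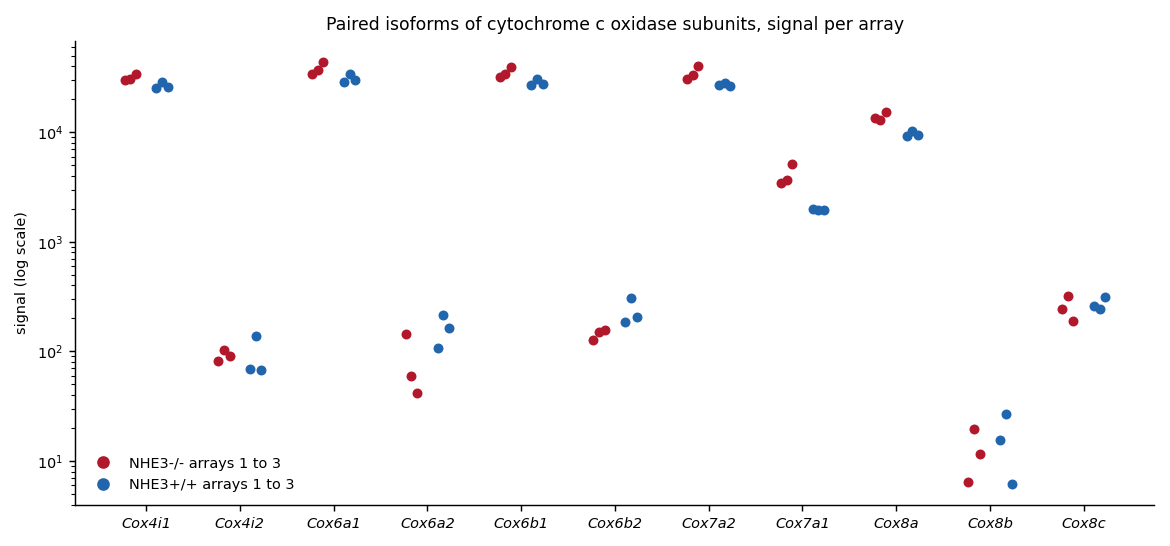
Signal per array (log scale) for isoforms of complex IV subunits 4, 6a, 6b, 7a and 8, with NHE3-/- arrays in red to the left of NHE3+/+ arrays in blue. The common isoforms Cox4i1, Cox6a1, Cox6b1, Cox7a2 and Cox8a have higher mean signals in NHE3-/- colon (Cox8a alone of these past the threshold), Cox7a1 is separated by 2.09-fold, and Cox4i2, Cox6a2, Cox6b2, Cox8b and Cox8c are dim. Heights of different genes are brightness of different probes, not relative amounts.

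Muscle and fat markers were set beside the Cox7a1 result. Of 10 striated muscle markers, 4 passed the filter and 1 was higher: Ckmt2, a mitochondrial creatine kinase of muscle, with 332, 343 and 419 on the NHE3-/- arrays, against 125, 76.6 and 110 on the NHE3+/+ arrays (log2 fold change 1.56, SE 0.22, adjusted p = 0.00164). The summed signal of the 10 markers was 908 to 1274 on the NHE3-/- arrays and 666 to 857 on the NHE3+/+ arrays. That sum includes Ckmt2 and the genes below the filter, and it was not tested. Mb and the contractile genes Myl1, Tnnt3, Actn3, Myh7 and Tnni2 were below the filter. Ucp1, the uncoupling protein that defines brown fat, was below the filter too, and neither of the 2 brown fat markers tested passed. Among 6 adipose markers tested, Adipoq, Fabp4 and Car3 fell (log2 fold changes -1.77, -2.08 and -2.42) and Cidec rose (0.97). Over all probe sets tested, 6.24% were called lower and 4.97% higher. Without NHE3-/- array 3, Car3 alone of the adipose markers passed, and without a variance trend 0 did. With quantile normalization 2 were lower (Fabp4 and Car3) and 1 higher, and without NHE3+/+ array 3, 3 were lower and 2 higher. The summed signal of the adipose markers was 3921 to 4047 in NHE3-/- and 4225 to 8368 in NHE3+/+ colon. The part of other cell types in the Cox7a1 result was not tested.

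ATP synthase had the highest share of genes past the threshold, 11 of 17, and every tested gene had a positive log2 fold change. In the catalytic head, Atp5a1 (alpha, 0.45), Atp5c1 (gamma, 0.52) and Atp5d (delta, 0.38) rose, while Atp5b (beta, 0.32, adjusted p = 0.0692) and Atp5e (epsilon, 0.12) did not pass. Atp5c1, the rotating shaft, had 20867, 21387 and 23295 on the NHE3-/- arrays, against 16264, 15609 and 13932 on the NHE3+/+ arrays (SE 0.10, adjusted p = 0.00813). In the peripheral stalk, which holds the head still, Atp5j (0.58) and Atp5o (0.47) rose, and Atp5pb (0.25) and Atp5h (0.22) did not pass.

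Proton flow turns the c ring of ATP synthase, and its 3 genes, which encode the same mature protein, gave different calls. Atp5g1 had 12492, 12444 and 14841 on the NHE3-/- arrays, against 8739, 8648 and 8127 on the NHE3+/+ arrays (log2 fold change 0.63, SE 0.10, adjusted p = 0.00328). Atp5g3 rose as well (0.46, adjusted p = 0.0215), though in 2 of 6 fits on 5 arrays. Atp5g2 had 9520.4, 9217 and 9485 on the NHE3-/- arrays, against 8746, 9338 and 7787 on the NHE3+/+ arrays, with overlapping groups (0.13, adjusted p = 0.432). The difference in change between these genes was not tested.

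The small membrane subunits of ATP synthase, which hold its dimers in place, included the second-largest change among all members past the threshold. Atp5md, also known as DAPIT, had 11212, 11716 and 12236 on the NHE3-/- arrays, against 7261, 4818 and 6960.4 on the NHE3+/+ arrays. NHE3+/+ array 2 was low, and the NHE3-/- arrays were tight and all higher (1.85-fold, log2 fold change 0.90, SE 0.14, adjusted p = 0.00309). Atp5l (0.57), Atp5mpl (0.47) and Atp5j2 (0.43) rose too, and Atp5k (0.26, adjusted p = 0.121) did not pass. All 5 genes of this group had every NHE3-/- array above every NHE3+/+ array. The same held for 12.2% of all probe sets tested and for 41% of those with a mean signal of 5000 or more.

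Other probe sets of the same genes had a similar median log2 fold change, on the same 6 arrays. Of the 91 further probe sets, 80 passed the filter, for 49 genes. Of these 80, 23 were higher and 0 lower (limma; 47 and 1 at an unadjusted p under 0.05), with a median log2 fold change of 0.33. Over all probe sets tested 4.97% were called higher, and over those with a mean signal of 5000 or more 24.2%. At an unadjusted p under 0.05 limma gave 2763 of all 27024 higher and 4696 lower. For Ndufs8, 3 of 5 further probe sets were higher, with log2 fold changes of 0.40 to 0.61, and for Ndufs4 the 2 further probe sets tested, both dim, did not pass (0.34 and -0.073). Probe sets of 1 gene share the RNA and are not replicates. The transcript of the mitochondrial DNA gene ND5, a proton-pumping subunit of complex I, had 45460.4, 50462 and 58330.1 on the NHE3-/- arrays, against 42571, 53047 and 44851 on the NHE3+/+ arrays. Its groups overlapped (log2 fold change 0.13, adjusted p = 0.514).

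Genes around the chain were counted in lists drawn up with earlier results of these data known. In the citric acid cycle 4 of 16 tested genes rose (25%), against 4.97% of all probe sets tested and 24.2% of those with signals of 5000 or more, a range that held 8 of the 16. The median log2 fold change was 0.27. They were Cs (citrate synthase, 0.62), Dlat (of the pyruvate dehydrogenase complex, 0.74), Idh3a (of isocitrate dehydrogenase, 0.52) and Mdh2 (malate dehydrogenase, 0.41). The count was 3 without NHE3-/- array 3 and 2 without NHE3+/+ array 3 or with quantile normalization, and 1 without a variance trend. Among electron carriers and the enzymes that feed ubiquinone 4 of 16 rose (25%, median 0.060), and 1 without a variance trend. Cycs, cytochrome c, had 0.42, Etfdh, which brings in electrons from fatty acid oxidation, 0.61, Sqor, which oxidises hydrogen sulfide, 0.57, and Prodh, which oxidises proline, 1.40. Sqor had 25950, 20654 and 24767 on the NHE3-/- arrays, against 16482, 16671 and 14831 on the NHE3+/+ arrays. Its groups did not overlap.

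Carriers, porins and inner membrane proteins had 4 of 21 genes higher, or 19% (median 0.098, and -0.0063 with quantile normalization). The share of higher calls was 4.97% over all probe sets tested and 24.2% over those with signals of 5000 or more, a range that held 8 of the 21. These were Slc25a3 (phosphate carrier, 0.45), Slc25a5 (ADP/ATP carrier, 0.51), Vdac2 (outer membrane porin, 0.44) and Chchd3 (cristae organisation, 0.48). None of the 4 passed without NHE3-/- array 3, without NHE3+/+ array 3 or without a variance trend. Among assembly factors of complexes III to V, 1 of 26 rose (median -0.076): Cox17, the copper chaperone of complex IV (0.59, adjusted p = 0.0131). None of these 4 lists had a gene called lower, against 6.24% of all probe sets tested. At an unadjusted p under 0.05 limma gave 5 of 26 lower among these assembly factors and 2 of 16 among the electron carriers. It gave 1 of 21 in the carrier and porin list, 0 of 16 in the citric acid cycle and 4696 of 27024 over all probe sets tested. With quantile normalization 2 genes of the carrier and porin list were called lower, Tomm20 (-0.33) and Hspd1 (-0.41), and 4 higher.

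Regulators of mitochondrial biogenesis included genes that fell. Of 20 tested, 4 fell (20%) and 0 rose (limma; 5 lower and 2 higher at an unadjusted p under 0.05), against 6.24% of all probe sets tested called lower. At that unadjusted threshold 4696 of all 27024 probe sets tested were lower and 2763 higher. The median of the regulators was -0.12 (0.042 with quantile normalization), near the -0.10 of all probe sets tested. Tfam, which packages and transcribes mitochondrial DNA, had 848, 949 and 799.5 on the NHE3-/- arrays, against 1394, 1148 and 1208 on the NHE3+/+ arrays (log2 fold change -0.51, adjusted p = 0.0301). Its groups did not overlap. Polg, the mitochondrial DNA polymerase (-0.53), Ssbp1, which binds single-stranded mitochondrial DNA (-0.68), and Pprc1, a coactivator of mitochondrial genes (-0.64), fell as well. The 4 calls were not stable: 0 passed without NHE3-/- array 3, without NHE3+/+ array 3, with array medians set equal or without a variance trend, and Ssbp1 alone passed with quantile normalization. Without NHE3+/+ array 3 Esrra, the estrogen-related receptor alpha, was called higher (0.53, adjusted p = 0.0415).

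**Figure D5:**
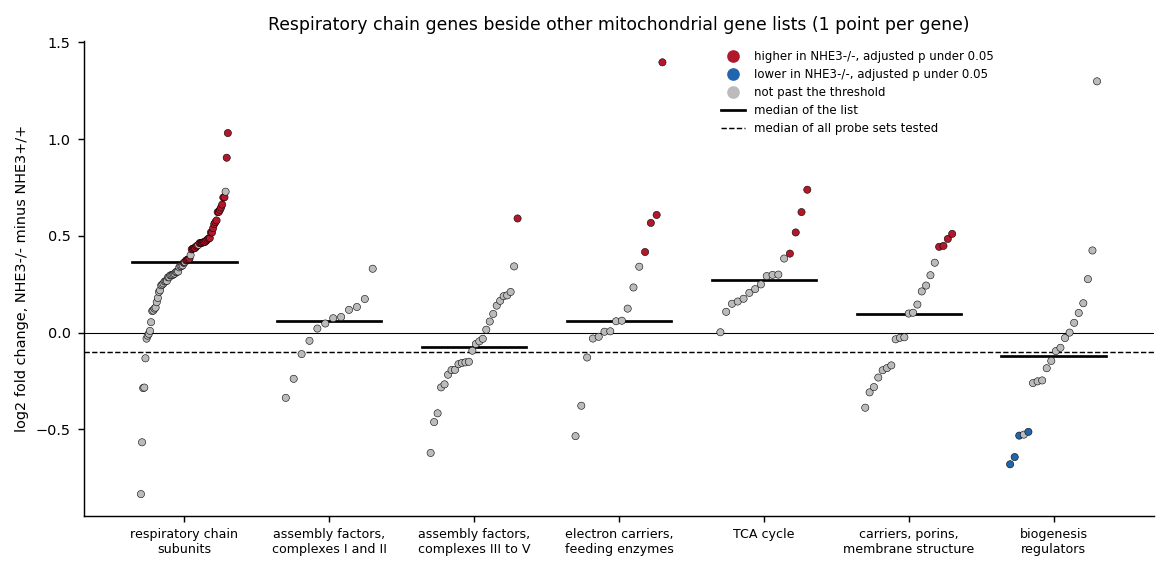
Log2 fold change of NHE3-/- over NHE3+/+ colon (vertical axis) for each tested gene of 7 mitochondrial groups, with red points higher, blue points lower and grey points not past the threshold. Black bars are group medians, from 0.36 for subunits to -0.12 for biogenesis regulators, and the dashed line is the median of all probe sets tested (-0.10).

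Markers of some cell types were called as well. Of 10 colon epithelium markers, Vil1 (0.41), Slc26a3 (0.72) and Cdh17 (0.54) were higher (30%) and Cdx2 (-0.58) was lower (10%). Car1 (0.049) and Krt20 (0.23) did not pass. The share of higher calls was 4.97% over all probe sets tested and 24.2% over those with signals of 5000 or more, a range that held 8 of the 10. Over all probe sets tested, 6.24% were called lower. The epithelium markers had summed signals of 242004 to 294055 on the NHE3-/- arrays and 209641 to 259804 on the NHE3+/+ arrays. With quantile normalization 2 were higher (Slc26a3 and Cdh17) and 2 lower (Cdx2 and Muc2), and without a variance trend 0 were called. Cdx2 did not pass without NHE3-/- array 3 or without NHE3+/+ array 3, and Vil1 did not pass without NHE3-/- array 3. Of 9 markers of dividing cells, 5 were lower (Mki67, Top2a, Cdk1, Mcm5 and Mcm6) and 0 higher, the median log2 fold change was -0.78, and the sums were 10468 to 13215 in NHE3-/- and 14166 to 17956 in NHE3+/+ colon. The count lower was 5 with quantile normalization or without NHE3+/+ array 3, 4 without NHE3-/- array 3 and 1 without a variance trend. Of 8 smooth muscle markers tested, 0 passed in limma (0 higher and 1 lower at an unadjusted p under 0.05), with sums of 2667 to 4366 in NHE3-/- and 3419 to 3907 in NHE3+/+ colon. Myh11, Tagln and Des, which are among the 10 smooth muscle markers listed, were dim in both genotypes, with mean signals of 137, 169 and 102. These signals are low for tissue labelled whole colon. The sums cover all markers of the list, and 0 of the 8 tested had a mean signal of 5000 or more. The part of these cell types in the respiratory chain result was not tested.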

How the data were processed

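RNA of whole colon was measured on 6 arrays, 3 NHE3-/- and 3 NHE3+/+. The deposited table holds the authors' intensity per probe set on a linear scale, made with GCOS (the array maker's software) per the submitters' processing notes, with no version or settings given in the sources used here. On every array the 2% trimmed mean was 500. The table is not centred, and arrays with 1 label have no ratio direction. Median signals were 97.8, 99.0 and 103.9 on NHE3-/- arrays 1 to 3 and 99.7, 121.4 and 106.9 on NHE3+/+ arrays 1 to 3. No depth applies to arrays, and their number limits the precision.

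No further normalization was applied. Log2(signal + 31.4) was fitted with limma 3.58.1 in R 4.3.3 (lmFit, eBayes with a trend, two-sided). The pseudocount was the 25th percentile of all values, and fold changes on this scale understate changes of dim probe sets. Probe sets with a mean under the 40th percentile and array controls were left out, and p-values were adjusted by Benjamini-Hochberg over the 27024 tested, with a threshold of 0.05. The fit was tested on simulated data. Detection calls were not used here.

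Members, lists, settings and the naming rule were chosen with earlier results of these data known. The rule took members past the threshold, the brightest and most changed of each complex, core and paired isoform genes, members whose probe sets disagreed, and called genes of the lists. Other genes named were chosen after their values were seen. Alternatives varied the pseudocount, filter, scaling, variance model, arrays, Xist as a covariate, a replicate block and the probe set per gene. Promoter windows came from RefSeq (GRCm38.p6), matched by gene and searched on both strands.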

Additional observations from a re-analysis of the deposited data

How the results depend on the processing

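No called member reversed sign under the alternatives compared gene by gene, which leave out the mean of all probe sets of a gene, compared by counts and medians alone. Without 1 array, 20 to 31 members were higher and 0 to 0 lower, 839 to 1211 probe sets of the array were higher and 775 to 1385 lower (1342 and 1685 with all arrays), and the median log2 fold change was 0.26 to 0.37 for all members, 0.24 to 0.35 for complex I, 0.24 to 0.35 for II, 0.35 to 0.47 for III, 0.20 to 0.37 for IV and 0.36 to 0.49 for V. Quantile normalization gave 1 member lower and medians of 0.20 for all members, 0.19, 0.22, 0.25, 0.14 and 0.29 for complexes I to V. With medians of log2 values set equal they were 0.42 for all, 0.40, 0.41 and 0.52 for I to III, and 839 probe sets were lower. With signals scaled to equal medians before taking log2 (added after seeing the data) they were 0.44 for all, 0.42, 0.44, 0.54 and 0.42 for I to IV, 738 probe sets were lower, and the median of all probe sets was 0.0090. Without a variance trend 4 members were higher, and 511 probe sets were higher and 558 lower. With the Xist signal as a covariate the medians were 0.48 for all, 0.44, 0.50, 0.48 and 0.60 for I, III, IV and V. With NHE3-/- array 3 alone 22 members and 767 probe sets were higher, with medians of 0.47 for all, 0.43, 0.51, 0.47 and 0.60 for I, III, IV and V. Without assembly factors the median was 0.36 for all and 0.42 for complex II. The mean of all probe sets of a gene gave 0.22 for II and 0.33 for III. With no filter on low signal 24 members were higher. The cause of these shifts was not tested.

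The replicate numbers did not pair the samples (correlations 0.026, -0.038 and 0.0034 between same-numbered deviations), and a fit with the number as a block called 29 members higher. Reversed signs belonged to members not past the threshold. Cox7a2l had 0.087 with equal log2 medians, 0.047 with the Xist covariate, 0.041 with NHE3-/- array 3 alone and 0.11 with scaled signals. Quantile normalization gave -0.10 for Ndufs7, -0.066 for Uqcrb, 0.042 for Cox8c and -0.075 for Atp5g2. Without 1 array the values ran from -0.047 to 1.17 for Ndufs5, -0.044 to 0.053 for Ndufs7, -0.077 to 0.31 for Cox4i2, -0.078 to 0.084 for Cox7a2l and -0.31 to 0.029 for Cox8c.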
